A study of Mus musculus with 6 samples.

Results

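The regions described here are isolated T-bet sites that recurred in wild-type (WT) induced regulatory T cells: peaks found by both WT libraries, absent from the T-bet knockout (KO) list, and far from any other such peak. They were chosen by the overlap and spacing of the deposited peaks. A member is a WT replicate 1 peak that shares at least 1 bp with a WT replicate 2 peak, meets no KO peak, and has no other such peak on its chromosome within a gap of 50 kb, measured from end to start. Of the 7996 replicate 1 peaks, 726 met the overlap criteria, or 9.08%, and 416 of these were isolated, or 5.2% of the list. The remaining 310 shared sites lay within 50 kb of one another and are called clustered. Because the rule used the peaks of all 3 lists, their scores, widths and positions are given as descriptions, with no test.

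All groups were cultures of CD4 T cells from spleen and lymph nodes of Balb/c mice of 4 to 10 weeks, sorted as naive cells. They were activated on plates with anti-CD3 and anti-CD28 at 10 µg/ml each and grown for 7 days in TGF-β1 at 33 ng/ml and IL-2 at 20 ng/ml. The 2 WT libraries and the 1 KO library were precipitated with the same rabbit serum against T-bet. The labels do not describe the KO allele, and they do not say whether the WT libraries came from separate mice or cultures, so agreement between them may be technical only. These are cells made in culture, not regulatory T cells taken from tissue. Peak lists hold no expression values, so the cell type could not be checked against its markers.

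T-bet, encoded by Tbx21, belongs to the T-box family of transcription factors and directs the T helper 1 programme. Regulatory T cells can also express it, and those that do are known for restraining T helper 1 responses. T-bet binds DNA at promoters and at distal elements, and a gene it regulates may have a single element or several spread over its surroundings. Regulatory T cells depend on Foxp3, and TGF-β with IL-2 is the usual way to induce that fate from naive CD4 T cells in culture. The precipitate from KO cells shows what the serum brings down where its target is lacking.

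Isolated sites made up most of the places where the WT libraries coincided. They were 57.3% of the 726 shared sites (exact 95% interval 53.6 to 60.9%, over sites, which are not replicates). When neighbouring shared sites within 50 kb were counted as 1 location, the 726 sites formed 539 locations, of which 416 were single sites and 123 were clusters. Of the clusters, 82 held 2 sites, 24 held 3, and the remaining 17 clusters held 4 to 6. The isolated replicate 1 peaks covered 133 kb of sequence in all, within 1702 kb covered by the whole list.

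Spacing among isolated sites was wide and had no sharp step at the threshold. The median gap to the nearest other shared site was 713900 bp, with quartiles of 227456 and 2205140 bp. For 181 of the 416 sites the nearest other shared site was beyond 1 Mb, and for 48 it was beyond 5 Mb. At the near end, 51 sites had another shared site at 50 to 100 kb. Among clustered sites, 184 of 310 had a neighbour within 10 kb and 87 within 1 kb.

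**Figure D1:**
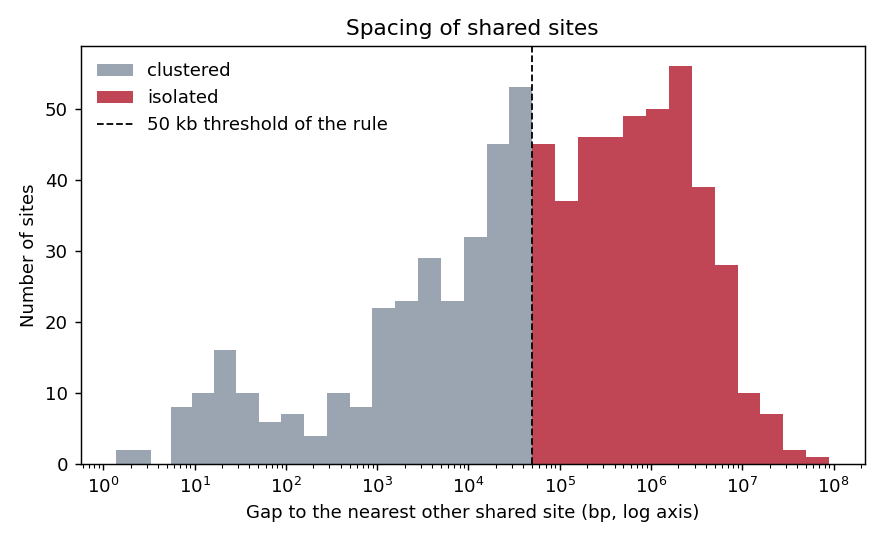
Number of shared sites by the gap to the nearest other shared site, in bp on a log axis, with isolated sites in red, clustered sites in grey and the 50 kb threshold as a dashed line. The bars run on across the threshold, and a smaller group of clustered sites sits well below 1 kb.

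The sites just inside and outside the threshold show how little separates the classes there. The nearest member was chr17:8132361-8132790, which lay 50038 bp from the next shared site, itself part of a cluster. It scored 366 in replicate 1 and 102 in replicate 2. A pair on chromosome 6 was split by 50917 bp: chr6:48631614-48631902 scored 147 and 78.2, and chr6:48682820-48683317 scored 521 and 132. Next came chr2:11627152-11627534, at 51815 bp, which scored 756 and 207. On the other side of the threshold, the widest-spaced pair was chr4:82973450-82973770 and chr4:83021643-83021877, at 47872 bp. Their replicate 1 scores were 199 and 256, and their replicate 2 scores 119 and 91.9. The pair chr17:88463863-88464191 and chr17:88511599-88512065, at 47407 bp, scored 437 and 428 in replicate 1 but 72.7 and 366 in replicate 2. Scores on the 2 sides of the threshold overlapped.

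The most remote members were on X. The gap from chrX:160451318-160451581 to the next shared site was 55929954 bp, and the nearest other replicate 1 peak was 2171829 bp away. Its scores were 182 in replicate 1 and 73.7 in replicate 2, the latter close to the lowest of that list. Next came chrX:48371007-48371287 and chrX:10831225-10831448, each other's neighbour at 37539558 bp. The first scored 326 and 116, and the second scored 126 in replicate 1 and 208 in replicate 2. On the autosomes the most remote were chr8:10993736-10994084, at 24659922 bp with scores of 462 and 159, and chr16:3934834-3934980, at 20281997 bp with scores of 121 and 73.4. Remoteness therefore took in both strong and weak peaks.

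Each score is the authors' deposited value from their peak calling. The scale is unstated, so a score is read only within its own list. Isolated sites lay high in the replicate 1 list: their scores ran from 73.1 to 1786, with a median of 261 (95% interval of the median 241 to 280) and quartiles of 152 and 359. In that list 205 of the 416, or 49.3%, were in the highest decile, and 56, or 13.5%, below the median. Clustered sites were alike: 152 of the 310, or 49.0%, were in the highest decile, and 42, or 13.5%, below the median. Among the 7236 replicate 1 peaks without a replicate 2 peak, 423, or 5.85%, were in the highest decile. Since recurrence in replicate 2 chose the members, this contrast belongs to the choice.

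In the replicate 2 list the isolated sites stood near the middle. Their scores ran from 70.1 to 591, with a median of 104 (97.7 to 110) and quartiles of 83.5 and 146. That list as a whole had a median of 108, and 193 of the 416 isolated sites, or 46.4%, were above it. The list holds 851 peaks, of which 416 belong to isolated sites and 279 to clustered sites. The members are thus a large part of the list, and a standing near its middle largely follows from the rule. The lowest score in the list, 70.1, belonged to an isolated site, chr12:72096264-72096409, which scored 87.8 in replicate 1. Scores under 80 in replicate 2 were found for 84 isolated sites, or 20.2% (16.4 to 24.4%), while 17 had a replicate 1 score under 80. Of the 310 clustered sites, 38 had a replicate 2 score under 80, or 12.3% (8.82 to 16.4%). In the whole list of 851 replicate 2 peaks a score of 79.99 had rank 691, so such scores were not particular to the members. The 84 members nevertheless rest on a replicate 2 peak close to that list's lowest score. Both scores reached 100 at 206 sites, or 49.5%.

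Clustered sites scored higher than isolated ones at the median in replicate 2, and in replicate 1 the order depended on how split peaks were counted. Median replicate 2 scores were 104 (97.7 to 110) for isolated and 124 (116 to 131) for clustered sites, a difference of 19.2. At 61 clustered sites the replicate 2 peak also met another replicate 1 peak. No isolated site had such a split, which the rule all but prevents. Over the 249 clustered sites whose replicate 2 peak met 1 replicate 1 peak, the median replicate 2 score was 125 (118 to 134). In replicate 1 the medians were 261 (241 to 280) for isolated sites, 259 for all clustered sites and 298 (266 to 323) for the 249. With each replicate 2 peak counted once, the clustered medians were 286 in replicate 1 and 125 in replicate 2. Replicate 2 scores above that list's median were found at 46.4% of isolated sites (41.5 to 51.3%) and 63.9% of the 249 (57.6 to 69.8%). When peaks below a score of 100 were dropped from every list, the difference between the replicate 2 medians was 0.455.

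The 249 clustered sites and the 416 isolated ones were then pooled and split into quintiles by score. By replicate 1 score, the replicate 2 medians of isolated sites were below those of clustered sites in all 5 quintiles. In the lowest quintile they were 88.9 and 104, in the middle one 92.2 and 119, and in the highest 159 and 175. With split peaks kept, the isolated medians were the lower in all but the second quintile, where they were 96.6 for isolated and 95.7 for clustered sites. Without split peaks, the share of sites that were isolated was 70.7% (62.2 to 78.2%) in the lowest quintile of replicate 1 scores and 54.9% (46.0 to 63.5%) in the highest. By replicate 2 score it was 73.7% (65.3 to 80.9%) in the lowest and 48.1% (39.4 to 56.9%) in the highest. Split peaks were all at clustered sites, so leaving them out changed that class only. With split peaks kept, the lowest quintile by replicate 1 score was 57.5% isolated (49.1 to 65.7%). The highest was 53.1% isolated (44.6 to 61.4%), and these intervals overlapped widely. By replicate 2 score the shares were 65.1% (56.7 to 72.8%) and 42.8% (34.6 to 51.2%). By replicate 2 score, then, the isolated share was lower among the strongest sites either way, as a description of these lists. By replicate 1 score the fall depended largely on leaving out split peaks.

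**Figure D2:**
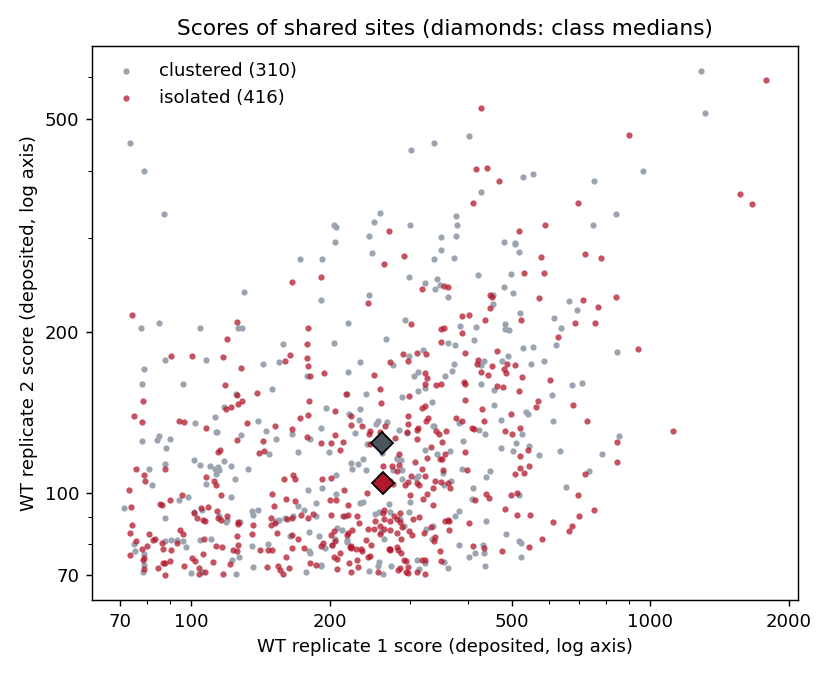
Deposited score of each shared site in WT replicate 1 (horizontal) and WT replicate 2 (vertical), both on log axes, with 416 isolated sites in red, 310 clustered sites in grey and diamonds at the class medians. The isolated diamond is lower in replicate 2, at 104 against 124, and in replicate 1 the diamonds stand at 261 and 259, where the clustered value includes 61 sites that share a replicate 2 peak with another replicate 1 peak and was 298 without them.

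The lists ranked the isolated sites in a loosely similar order. Across the 416 sites the log10 scores had a Pearson's r of 0.44 and the scores a Spearman's rho of 0.41. The points share 2 libraries, and peaks below each list's lowest score are missing. Leaving out the 2 sites with the most extreme replicate 1 scores gave an r of 0.41. Of the 50 highest sites by each score, 20 were the same, and of the 208 highest, 133. By quintile of the replicate 1 score within the isolated sites, the median replicate 2 score was 88.7, 96.3, 88.6, 116 and 159 from lowest to highest. The medians rose in the upper 2 quintiles.

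The strongest isolated site in both lists was chr15:59973053-59973778. It scored 1786 in replicate 1, rank 14 of that list, and 591 in replicate 2, rank 8. Its nearest shared neighbour was 1131657 bp away, and 3 replicate 1 peaks without a replicate 2 counterpart lay within 50 kb, the highest with a score of 380. Second by replicate 1 was chr18:68349488-68350026, with scores of 1662 and 346. It ranked 10 among isolated sites in replicate 2. Next was chr16:91533214-91534106, with 1570 and 362. It was also the widest member, at 893 bp in replicate 1 and 1021 bp in replicate 2. The site chr10:19438412-19438908 scored 898 and 467, rank 6 and rank 3 among isolated sites. These 4 sites were among the 10 highest by each score.

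Other sites were strong in replicate 1 and ordinary in replicate 2. The site chr11:54836514-54837048 scored 1121 in replicate 1, the fourth of the isolated sites, and 130 in replicate 2, rank 141 among them. It had no other peak of any list within 50 kb, and its nearest shared neighbour was 5818712 bp away. On chromosome 12, chr12:74705777-74706153 scored 846 and 114, rank 179 by replicate 2. The site chr13:43870393-43871009 scored 844 and 124, rank 158. Less uneven were chr6:52912194-52912764, with 940 and 186, chr4:62290934-62291378, with 842 and 232, and chr9:45959541-45960027, with 781 and 275.

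The reverse also occurred. In replicate 2 the second highest isolated site was chr17:52301891-52302276, at 525. It scored 428 in replicate 1, rank 77 among isolated sites, and no other peak of any list lay within 50 kb. Chromosome 15 held 4 of the 10 highest by replicate 2. Besides the site ranked first, they were chr15:50498961-50499352, with 404 in replicate 2 and 441 in replicate 1, chr15:66339364-66339839, with 384 and 467, and chr15:58841005-58841395, with 348 and 410. Also among these 10 were chr19:29528531-29529068, with 403 and 416, and chr1:140456208-140456745, with 348 and 696. None of these 5 sites was among the 10 highest by replicate 1. Chromosome 15 as a whole was not high in replicate 2: its 20 isolated sites had a median score of 83.6, the lowest of any chromosome. The median over all isolated sites was 104.

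At the low end, the weakest member by replicate 1 was chr3:37877585-37877691, with a score of 73.1 and a replicate 2 score of 101. Next were chr8:126794990-126795140, with 73.6 and 76.4, chr1:163366919-163367059, with 73.6 and 83.9, and chr6:65466877-65467099, with 73.9 and 94.0. The site chr10:51173429-51173575 scored 74.3 in replicate 1 but 215 in replicate 2, rank 101 of that list. The weakest by replicate 2, after the chromosome 12 site already given, was chr2:34871729-34872043, with 70.4 and a replicate 1 score of 117. A score of 70.5 in replicate 2 was shared by chr15:61378214-61378600, chr12:80041186-80041344 and chr6:127190796-127191073, whose replicate 1 scores were 323, 104 and 159. A low score in one list did not always go with a low score in the other.

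The replicate peaks coincided closely at isolated sites. The midpoints of the replicate 1 and replicate 2 peaks were a median of 28.2 bp apart, with quartiles of 12.5 and 50.0 bp. They were within 50 bp at 313 of the 416 sites, or 75.2% (70.8 to 79.3%), and within 100 bp at 396, or 95.2%. The signed offset had a median of 0.25 bp, so neither list was shifted along the chromosome. The overlap covered a median of 95.1% of the replicate 1 peak and 83.9% of the replicate 2 peak. At least 50% of each peak was shared at 384 sites, or 92.3%. At the 249 clustered sites without a split peak the midpoints were a median of 29.0 bp apart, and within 100 bp at 94.4% (90.7 to 96.9%), close to the values of isolated sites.

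A few members rested on a slight or lopsided overlap, and they were picked out after their values were seen. At chr15:73254124-73254321 the replicate 2 peak shared only 2 bp with the replicate 1 peak, and the scores were 102 and 74.5. The largest offset, 232 bp, was at chr16:89848944-89849355, where a replicate 2 peak of 867 bp began inside the replicate 1 peak and ran past it. Scores there were 257 and 157.

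Isolated replicate 1 peaks had a median width of 304 bp (295 to 316), against 169 bp for replicate 1 peaks without a replicate 2 peak. As with scores, that contrast belongs to the choice by recurrence. Clustered replicate 1 peaks were wider, with medians of 333 bp over all 310 and 358 bp (343 to 376) over the 249 without a split peak. The replicate 2 peaks of isolated sites had a median of 345 bp (334 to 356), against 397 bp (384 to 413) at those 249 clustered sites. The replicate 2 peak was the wider at 276 sites, or 66.3%. Width followed score: across isolated sites, log10 replicate 1 score and width had a Pearson's r of 0.79, and the widths of the lists had an r of 0.68. In the lowest quintile of replicate 1 scores the median width was 172 bp in replicate 1 and 276 bp in replicate 2. In the highest quintile the medians were 453 and 437 bp. The widest replicate 1 peaks after the first were the chromosome 15 site ranked first, chr11:22592683-22593406, chr18:80808519-80809183 and chr18:82678249-82678909. The last 3 scored 629, 722 and 753 in replicate 1 and 196, 108 and 92.6 in replicate 2.

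A small group of isolated sites was narrow in both lists, and its width limits were set after the values were seen. Both peaks were under 200 bp at 14 of the 416 isolated sites, or 3.37% (1.85 to 5.58%), and at 0 of the 310 clustered sites, for which an exact interval reaches 1.18%. Of the 34 replicate 1 peaks that met both a replicate 2 and a KO peak, and so were left out by the rule, 14, or 41.2% (24.6 to 59.3%), were as narrow. Under 150 bp the counts were 6, 0 and 7. The 6 isolated ones scored 174 to 297 in replicate 1, where the lowest quintile of isolated sites, of median width 172 bp, reached 126. In replicate 2 they scored 77.9 to 153, against a median of 104 for all isolated sites. On chromosome 3, chr3:145353962-145354067 was 106 bp wide in replicate 1 and 70 bp in replicate 2, with scores of 297 and 105. The peaks of chr7:52879040-52879132 scored 281 and 77.9, and those of chr6:125568020-125568130 scored 228 and 78.5. Scores were 217 and 153 at chr19:44681554-44681654, 202 and 83.2 at chr1:171967518-171967607 and 174 and 90.7 at chr5:53046364-53046448. The KO list held no peak at any of these 6, but it had only 78 peaks, and the part of background enrichment was not tested.

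**Figure D3:**
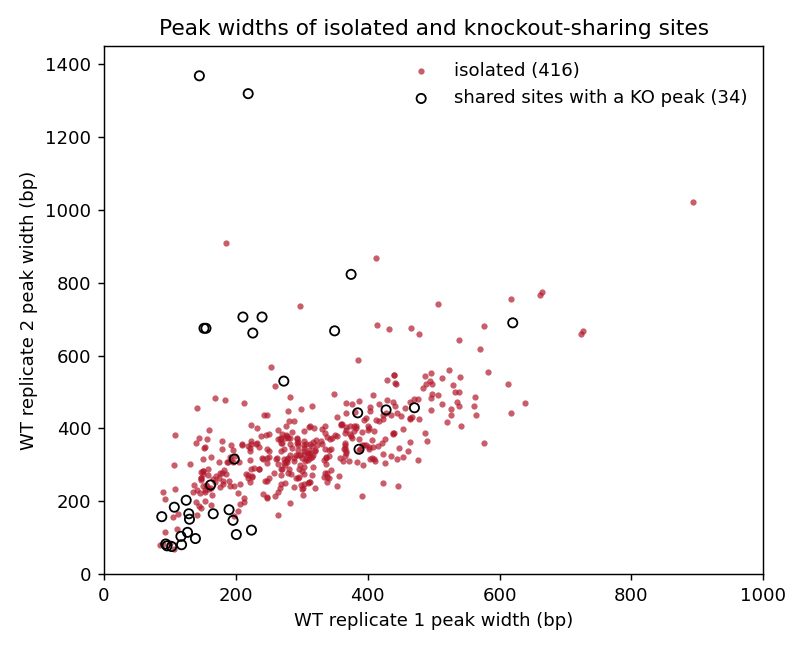
Peak width in WT replicate 1 (horizontal) and WT replicate 2 (vertical), in bp, for the 416 isolated sites in red and the 34 shared sites that also met a KO peak as open circles. Most isolated sites lie between 200 and 600 bp on both axes, while many open circles, and 14 isolated sites, lie under 200 bp on both.

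Few KO peaks lay near isolated sites. A KO peak lay within 50 kb of 2 of the 416, or 0.481% (0.0583 to 1.73%), and of 21 of the 310 clustered sites, or 6.77% (4.24 to 10.2%). Clustered sites share locations, so 1 KO peak can lie near several of them, and the 21 are not all separate places. The KO list holds 78 peaks, so few positions anywhere have one within 50 kb. A share near 0 is therefore not particular to isolated sites, and it does not show that the sites lack KO signal. The share over all replicate 1 peaks is not given here. The first of the 2 was chr19:4059510-4059695, which had 2 KO peaks within 50 kb, the nearer at 684 bp. It scored 100 in replicate 1 and 180 in replicate 2, where its peak was 910 bp wide. The other, chr10:80393146-80393640, had a KO peak at 1313 bp and scored 666 and 84.8. Extending KO peaks by 1 kb removed the first and kept 415 sites.

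Isolation refers to shared sites alone. Most members had company in replicate 1: 279 of the 416, or 67.1% (62.3 to 71.6%), had at least 1 replicate 1 peak without a replicate 2 counterpart within 50 kb. The highest of these neighbours scored 140 at the median, and the isolated sites beside them 280. At 72 sites, or 17.3%, such a neighbour scored higher than the shared site itself. The nearest other replicate 1 peak was a median of 20664 bp away, and at 49 sites a replicate 1 peak that did not recur lay within 1 kb.

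The number of these neighbours around isolated sites was close to that around replicate 1 peaks that did not recur. Of the 7236 peaks without a replicate 2 counterpart, 63.1% had another within 50 kb. At least 3 were present around 22.4% of isolated sites (18.4 to 26.7%) and 24.7% of the peaks that did not recur. Around clustered sites the shares were 88.1% and 53.2% (47.5 to 58.9%). At gaps of 10 to 20 kb there were 15.7 such neighbours per Mb around isolated sites, 15.8 around the peaks that did not recur and 35.2 around clustered sites. The mean over chromosomes 1 to 19 and X was 2.74 per Mb. Within 1 kb the densities were 66.1, 89.8 and 62.9 in the same order. By 200 to 500 kb they had fallen to 5.12, 5.57 and 6.37. A neighbour was counted once for each site it lay near, so clustered sites, which lie close together, could count the same one.

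**Figure D4:**
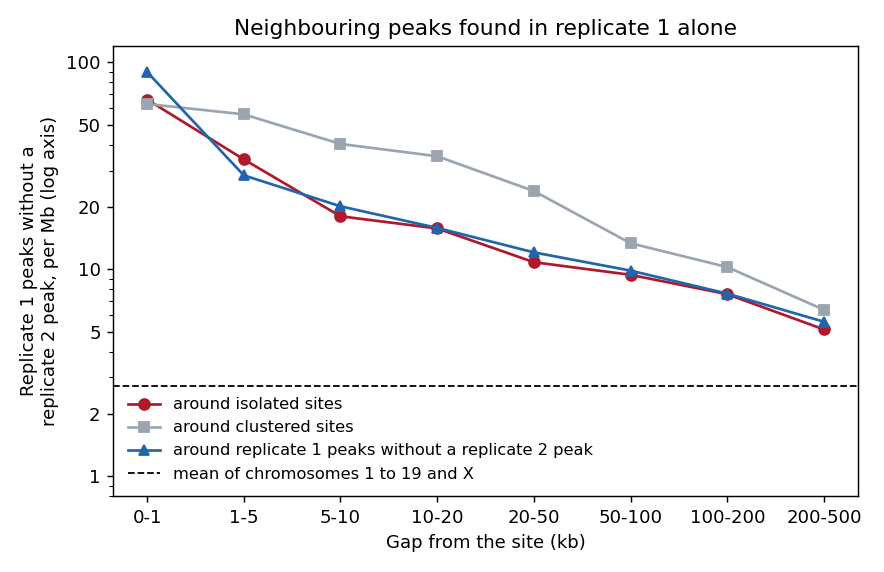
Replicate 1 peaks without a replicate 2 counterpart, per Mb on a log axis, by gap from the site in kb, around isolated sites (red circles), clustered sites (grey squares) and replicate 1 peaks that did not recur (blue triangles). The red and blue lines lie close together beyond 5 kb, and the grey line is above both from 1 kb outwards, with the dashed mean of 2.74 per Mb below all of them. A neighbour counts once for each site it lies near.

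The most crowded member was chr9:45959541-45960027, already given among the 10 highest, with 10 such neighbours within 50 kb, the highest scoring 235. It was followed by chr16:49797045-49797412, with 9 neighbours and scores of 319 and 111, and by chr2:127140135-127140624, with 8 neighbours and scores of 680 and 146. These 3 were chosen after their values were seen. In replicate 2, a peak without a replicate 1 counterpart lay within 50 kb of 15 isolated sites, or 3.61% (2.03 to 5.88%), and of 39 clustered sites, or 12.6% (9.10 to 16.8%).

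At 135 isolated sites, or 32.5% (28.0 to 37.2%), no other peak of any of the 3 lists was present within 50 kb. Their median scores were 220 in replicate 1 (192 to 265) and 101 in replicate 2. The other 281 isolated sites had medians of 277 (255 to 297) and 105. By quintile of replicate 1 score, from lowest to highest, 35, 30, 29, 24 and 17 sites stood wholly alone. The strongest of them, after the chromosome 11 site with a replicate 1 score of 1121, were picked after their values were seen. They were chr6:119461908-119462384, with scores of 713 and 229, chr4:108043939-108044380, with 684 and 208, chr1:193017541-193018036, with 522 and 210, and chr5:24282597-24282972, with 521 and 117. Sites with high scores in both lists were thus present without any other listed peak around them.

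Isolated sites were found on all 19 autosomes and X. Over the autosomes there were 410, or 0.166 per Mb (exact 95% Poisson interval 0.150 to 0.183). Chromosome 10 was the densest, with 38 sites, or 0.292 per Mb (0.207 to 0.401), and chromosome 14 the sparsest autosome, with 12 sites, or 0.0959 per Mb (0.0495 to 0.167). The balance of isolated and clustered sites differed between chromosomes. Chromosome 4 held 15 isolated and 34 clustered sites, so that 30.6% of its shared sites were isolated. Chromosome 5, similar in length, held 24 isolated and 6 clustered sites. Clustered sites share locations, so their count per chromosome moves with a few places.

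**Figure D5:**
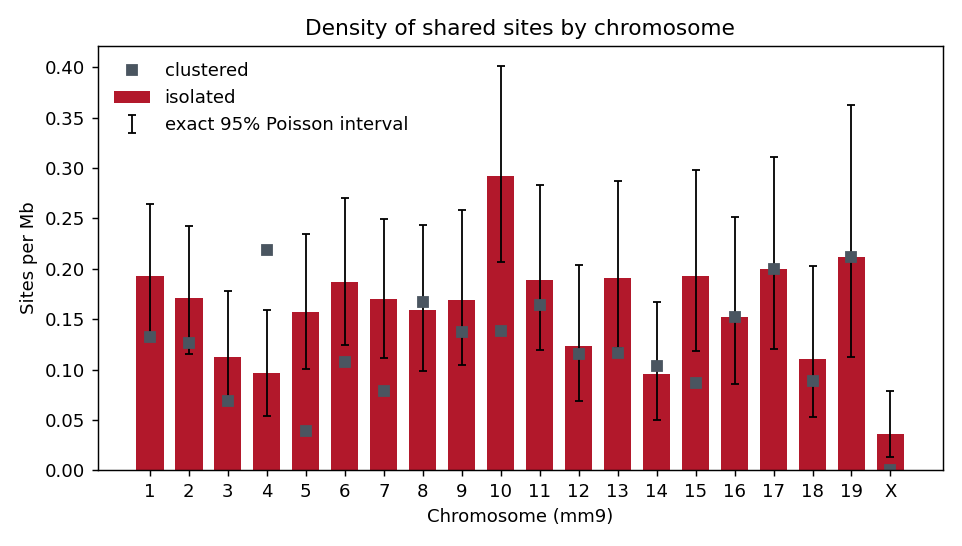
Isolated shared sites per Mb of each mm9 chromosome (red bars from 0, with exact 95% Poisson intervals) and clustered sites per Mb (grey squares). Chromosome 10 has the highest bar, 0.292 per Mb, chromosome 4 has more clustered than isolated sites, and X has the lowest bar and no clustered site.

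All 6 shared sites on X were isolated, a density of 0.0360 per Mb (0.0132 to 0.0784). As a share of the replicate 1 peaks, isolated sites were 6.19% of the 97 on X and 5.19% of the autosomal ones. The strongest was chrX:98932567-98932861, which scored 590 in replicate 1 and 317 in replicate 2. Of the other X sites not yet given, chrX:104446352-104446505 scored 77.9 and 136, and chrX:104521146-104521363 scored 221 and 79.0. These last lay 74640 bp apart, and a gap of 100 kb would have made them a cluster.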

How the data were processed

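ChIP-seq peak lists of 3 libraries were used, and the 3 input libraries were not analysed here. Per the submitters' processing notes the tools were CASAVA, Bowtie2 and MACS 1.4, on mm9, with settings and controls unstated. Each deposited list gives chromosome, start, end, name and a score per peak. The score is the authors' value on an unstated scale. Read counts and depth are unknown. Samples were grouped by title. Overlaps of 1 bp or more and gaps were computed in Python 3.11.15 (numpy 2.4.6, scipy 1.17.1, pandas 2.3.3, matplotlib 3.10.9) and tested on simulated data. Chromosome lengths came from GenomeInfoDb 1.38.1 (R 4.3.3). Positions are mm9, counted from 1. No mm9 annotation or genome was used here, so genes and sequences are not given. Shares carry exact (Clopper-Pearson) 95% intervals, medians exact order-statistic 95% intervals, and densities exact Poisson 95% intervals. All cover counting error over sites only. Named sites were the 10 highest and 5 lowest by each score, the 5 most remote, those nearest the gap threshold on both sides, the 5 widest and those on X; others are marked as picked after their values were seen. Members and rules were chosen with earlier results of these data known. Alternatives changed the gap, score threshold, overlap, KO filter, joining of peaks, chromosomes and replicates. Replicate 2 and KO share a leading number in their deposited names that replicate 1 lacks. Its meaning is unstated; as a batch, it would leave no WT pair within a batch.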

Additional observations from a re-analysis of the deposited data

How the results depend on the processing

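Of 9 alternatives to the rule other than leaving out a replicate, 8 gave 365 (gap of 100 kb) to 501 (gap of 20 kb) isolated sites, within 1.5 times the 416. With scores of at least 100 in every list there were 253, of which 206 were among the 416. That setting gave medians of 336 for the replicate 1 score, 149 for the replicate 2 score, 366 bp for the width and 32723 bp for the gap to the nearest other replicate 1 peak. The clustered minus isolated difference in median replicate 2 score was 0.455 there and 10.8 to 23.7 under the other alternatives. Rough intervals, built from those of the medians, ran from -25.0 to 25.9 at scores of at least 100 and from -4.74 to 26.2 at a gap of 20 kb. The sign is not settled at these settings, while under the others the intervals stayed positive. The clustered minus isolated difference in median replicate 1 score was -1.71, and positive at 3.72 (gap of 100 kb), 36.4 (reciprocal overlap), 0.29 (midpoints within 250 bp), 29.7 (joined within 1 kb), 24.6 (each replicate 2 peak once) and 36.8 (without split peaks), so its sign is not settled. Joining replicate 1 peaks within 1 kb gave a median width of 331 bp and 438 isolated sites, 22 of them made of clustered sites only. The isolated share of shared sites was 69.0% (gap of 20 kb), 50.3% (gap of 100 kb), 62.2% (scores of at least 100), 63.4% (reciprocal overlap of at least 50%) and 64.3% (joined). Leaving out a WT replicate, which ends the requirement of recurrence, gave 493 isolated sites without replicate 1 and 2646 without replicate 2, shares of 61.2% and 33.3%, with medians of 97.1 for the replicate 2 score and 103 for the replicate 1 score. The comparisons with clustered sites and their alternatives were chosen after seeing the data. The planned motif and gene location results were not run, as no mm9 genome was used here. No paired analysis was possible because the labels link no WT culture to the KO culture. The label of the KO ChIP library gives no replicate number, and a number alone would not make a pair. The inputs that share numbers with the WT libraries were not analysed here. A site missing from a short list is not shown to be unbound, since depth is unknown.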
